A study of Homo sapiens with 12 samples.

Results

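DoxR-v cells are human SK-N-Be(2)C neuroblastoma cells that were made resistant to doxorubicin in stepwise concentrations of the drug and were given 0.5 µM vorinostat (SAHA) at each logarithmic increase of its dose. WT-v cells are the same parental cells given the same vorinostat at the same times, without doxorubicin. Both groups therefore carry the vorinostat exposure, and doxorubicin is what only the DoxR-v cells received. The comparison holds the 3 DoxR-v and the 3 WT-v arrays, 6 of the 12 arrays of the series. The other 6 arrays are 3 of doxorubicin-resistant cells made without vorinostat (DoxR) and 3 of untreated parental cells (WT). All groups derive from 1 purchased line, and the arrays of a group are triplicate specimens that no label calls separate cultures. P-values therefore measure the spread between specimens, and the effect of doxorubicin cannot be told apart from any divergence between cells that were grown apart.

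Doxorubicin is an anthracycline that intercalates in DNA and traps topoisomerase II on it. Cells selected in it often carry more P-glycoprotein, the drug efflux pump encoded by ABCB1. Vorinostat inhibits the zinc-dependent histone deacetylases, and neuroblastoma cells exposed to such inhibitors can slow their division and take on neuronal traits. SK-N-Be(2)C cells are of the adrenergic type of neuroblastoma, which expresses the enzymes of catecholamine synthesis and the transcription factors of the sympathetic lineage.

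Signals were measured on Illumina HumanHT-12 v4 arrays and are given on a log2 scale after background correction and quantile normalization. A gene passed at an adjusted p under 0.1 (limma, Benjamini-Hochberg over all probes tested) with a fold change over 1.5, and only such genes are said to have risen or fallen. Of 12138 genes tested, 3088 passed in DoxR-v against WT-v cells (25.4%), of which 1534 rose (12.6%) and 1554 fell (12.8%). The change was over 2-fold in 1121 genes, 613 higher and 508 lower in DoxR-v cells. The DoxR-v and WT-v arrays did not overlap in 5619 genes (46.3%), which is the background for every non-overlap given below. Within the DoxR-v, WT-v and DoxR groups arrays correlated at 0.986 or more, and within WT at 0.981 or more. DoxR-v correlated with WT-v arrays at 0.953 to 0.966. On the second principal component of all arrays (22.6% of the variance) WT-v replicate 2 lay at 35.4, against 52.6 and 53.1 for the other WT-v arrays, and WT replicate 3 at -24.8, against -48.8 and -49.3 for the other WT arrays. Without WT-v replicate 2, 3341 genes passed in DoxR-v against WT-v cells, and without WT replicate 3, which is in neither of these groups, 3105 did. Probes were detected at 33.0 to 33.7% of all probes on DoxR-v arrays and 34.1 to 36.5% on WT-v arrays. All 14 measured markers of adrenergic neuroblastoma were detected on every array of both groups, and their summed linear signal ranged from 102000 to 122000 in DoxR-v and 110000 to 116000 in WT-v cells. Of these 14 markers 2 rose and 2 fell (28.6% called). Of 8 blood markers 2 were measured and did not pass. Of 5 Schwann cell markers 1 was measured, the receptor kinase ERBB3. It was detected on every DoxR-v array and on no WT-v array, and rose by a fitted 1.17. With the deposited values ERBB3 did not pass (0.31). The calls depended on how the values were normalized, since 1341 genes passed with the deposited normalized values and 1625 without background correction. Those 1341 of 12138 genes, 701 higher and 640 lower, are the background for every list count with the deposited values below.

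Among the largest rises was that of CD44, a cell surface receptor for hyaluronan. Its log2 signal was 11.11, 10.84 and 10.8 on the DoxR-v arrays, against 4.4, 4.48 and 4.43 on the WT-v arrays, where it was not detected. The DoxR-v signal was at least 45.6-fold higher (adjusted p = 4.98e-12), a bound set by the lowest detected signal of each WT-v array. GNG11, a gamma subunit of G proteins, read 12.02, 11.67 and 11.72 in DoxR-v cells and 5.34, 5.43 and 5.41 in WT-v cells, a log2 difference of 6.41 ± 0.15 (SE, adjusted p = 3.00e-11). NEFH, the heavy neurofilament subunit, read 11.84, 11.47 and 11.18 in DoxR-v cells and 4.86, 5.75 and 5.43 in WT-v cells. Every DoxR-v array of these 3 genes lay over 5 log2 units above every WT-v array.

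Other large rises were those of genes detected on every DoxR-v array and on no WT-v array. SST, which encodes the peptide somatostatin, had log2 signals of 10.51, 9.61 and 10.86 in DoxR-v cells, against 4.46, 4.39 and 4.34 in WT-v cells, and was at least 30.3-fold higher (adjusted p = 1.83e-08). YBX3, a cold-shock domain RNA-binding protein, read 10.54, 10.88 and 9.64 in DoxR-v cells and 4.37, 4.4 and 4.84 in WT-v cells, at least 30.8-fold higher (adjusted p = 7.15e-09). Both were also undetected in DoxR and in WT cells, with group means of 4.59 and 4.75 for SST and 4.53 and 4.45 for YBX3. The signal of these 2 genes was therefore above the detection limit in DoxR-v cells alone among the 4 groups. TMTC1 (at least 19.5-fold), PROK2 (14.0), CALCB (12.4) and CPED1 (11.6) were likewise undetected on all WT-v arrays. TMTC1 differed from SST and YBX3 in its other levels, which averaged 8.59 in DoxR and 8.82 in WT cells, so that WT-v was the group without it. NMU, which encodes the peptide neuromedin U, rose by 4.68 ± 0.15.

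**Figure D1:**
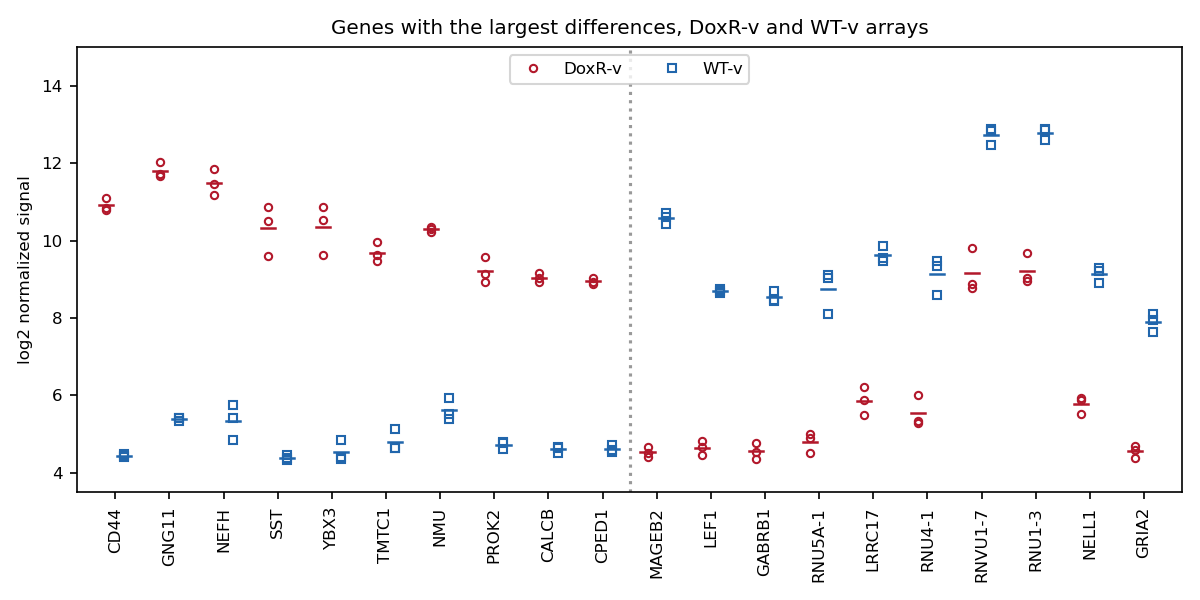
The log2 normalized signal of the 10 genes with the largest fitted rise (left of the dotted line) and the 10 with the largest fitted fall (right of it), with circles for the 3 DoxR-v arrays, squares for the 3 WT-v arrays and a bar at each group's mean. The arrays of both groups are apart in each of the 20 genes.

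MAGEB2, a cancer-testis antigen of the X chromosome, was among the genes that fell most. It was undetected in DoxR-v cells at 4.52, 4.42 and 4.66 and stood at 10.71, 10.62 and 10.42 in WT-v cells, a difference of at least 32.9-fold (adjusted p = 4.67e-11). DoxR and WT cells were also near the floor, with means of 4.72 and 4.68. LEF1, a transcription factor at the end of the Wnt pathway, read 4.67, 4.46 and 4.83 in DoxR-v cells and 8.69, 8.64 and 8.76 in WT-v cells, at least 8.89-fold lower. GABRB1, a GABA-A receptor subunit, was at least 7.97-fold lower, and GRIA2, an AMPA glutamate receptor subunit, at least 5.13-fold lower. LRRC17 fell by 3.76 on its brightest probe, with 1 of its 3 probes not passing, and NELL1 fell by 3.36. Neither had overlapping arrays.

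Genes of small nuclear RNAs, the RNA parts of the spliceosome, made up the rest of the largest falls. RNU5A-1 had log2 signals of 5, 4.52 and 4.9 in DoxR-v cells, against 9.12, 9.03 and 8.1 in WT-v cells, at least 9.24-fold lower. The log2 difference was -3.6 for RNU4-1, -3.58 for RNVU1-7 and -3.56 for RNU1-3. RNU1-3 averaged 9.85 in DoxR and 9.77 in WT cells, close to its 9.03, 8.95 and 9.68 on DoxR-v arrays, while the WT-v arrays read 12.86, 12.87 and 12.6. The WT-v arrays are thus the ones that stand apart. Across the 12 small nuclear RNA genes measured, grouped after their values had been seen, 8 were lower and 1 was higher in DoxR-v cells, with a median difference of -2.04 on the log2 scale. RNU6-1, the RNA of the U6 particle, differed by 0.23 (adjusted p = 0.426), and RN7SL1, the RNA of the signal recognition particle, by -0.23 (adjusted p = 0.253). Small Cajal body RNA genes were lower in 7 of 17 (41.2%) and small nucleolar RNA genes in 31 of 143 (21.7%), beside 12.8% over all genes. The RNU1 and RNVU1 genes are near-identical copies whose probes cannot separate them, and the labelled RNA was made with a kit that primes at poly(A) tails, which small nuclear RNAs lack. No value here measures that step.

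Resistance genes gave a mixed picture with a modest change of ABCB1. Its log2 signal was 11.62, 11.48 and 11.26 in DoxR-v cells and 10.57, 10.49 and 10.63 in WT-v cells, a rise of 0.89 ± 0.16 (adjusted p = 0.00123) with no overlap. Without vorinostat the rise was larger, at 2.15 for DoxR against WT cells, and the difference of the differences was -1.25 (adjusted p = 0.00105). Among 10 measured genes at ABCB1 on the long arm of chromosome 7, ABCB1 included, 4 rose in DoxR-v cells and none fell. That is 40% called beside 25.4% over all genes. In DoxR against WT cells all 10 rose, beside 17.4% of all genes. The neighbour ELAPOR2 rose by 3.68, to 9.27, 9.26 and 8.85 in DoxR-v cells, against 5.51, 5.34 and 5.49 in WT-v cells. CROT, a peroxisomal carnitine acyltransferase, rose by 1.25 and did not pass with the deposited values (0.52). Of 22 genes of the ABC transporter family measured, 7 rose and 5 fell, which is 54.5% called beside 25.4% over all genes. The median of the 22 was 0.0014 beside -0.035 over all genes tested. The list holds ABCE1, ABCF1, ABCF2 and ABCF3, which are not membrane transporters. With the deposited values 4 of the list rose and 3 fell. ABCE1 and ABCF1 are among the falls in both settings. ABCC3, an efflux pump for organic anions, read 8.52, 9.1 and 9.01 in DoxR-v cells and 6.79, 7.04 and 6.37 in WT-v cells, a rise of 2.14 (adjusted p = 3.47e-05). It fell by 2.33 in DoxR against WT cells. The paper listed no difference of ABCC3 between DoxR-v and WT cells by its criteria. ABCC5, an exporter of cyclic nucleotides, fell by 1.55 and ABCB9, a lysosomal peptide transporter, rose by 1.05. ABCC1 and ABCG2 had no probe among the genes tested.

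The targets of doxorubicin did not pass. TOP2A had log2 signals of 12.21, 12.36 and 12.36 in DoxR-v cells and 12.53, 12.75 and 12.39 in WT-v cells (-0.25, adjusted p = 0.225), and TOP2B differed by -0.30 (adjusted p = 0.200). Of 24 genes of anthracycline targets and metabolism, 8 rose and 2 fell (41.7% called beside 25.4% over all genes). The carbonyl reductase CBR3, undetected in WT-v cells, was at least 2.18-fold higher, though with the deposited values it differed by 0.49 and did not pass. The aldo-keto reductase AKR1C3 rose by 1.34, the quinone reductase NQO1 by 1.13 and the glutathione transferase GSTK1 by 1.5. AKR1C2 fell by 1.22 and GSTP1 by 0.91. AKR1C2 and AKR1C3 are close relatives whose probes may share signal. AKR1C3 and NQO1 were picked after their values were seen. Of 26 genes of antioxidant defence 6 rose and none fell, which is 23.1% called beside 25.4% over all genes, with a median of 0.17. Of them 4 rose with the deposited values and 4 passed without WT-v replicate 2. PON2, a lactonase that lowers oxidative stress at membranes, read 10.71, 10.65 and 10.82 in DoxR-v cells and 8.34, 8.44 and 8.08 in WT-v cells, a rise of 2.44 ± 0.14 (adjusted p = 6.59e-08). GPX3, the secreted glutathione peroxidase, rose by 2.06.

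Genes of cholesterol and fatty acid synthesis fell far more often than they rose. Of 32 measured, 16 fell and 2 rose, beside 12.8% lower and 12.6% higher over all genes, and the median difference was -0.57. DHCR7, the last enzyme of cholesterol synthesis, had log2 signals of 7.88, 7.52 and 7.46 in DoxR-v cells, against 9.5, 9.3 and 9.67 in WT-v cells, a fall of 1.87 (SE 0.15, adjusted p = 2.15e-06). HMGCS1, which makes the precursor of mevalonate, read 9.95, 9.72 and 10.12 in DoxR-v cells and 11.89, 11.82 and 11.65 in WT-v cells, a fall of 1.86. The highest DoxR-v array lay more than 1 log2 unit below the lowest WT-v array in both. Further members, picked by size after the values were seen, were MSMO1 at -1.75, INSIG1 at -1.57, MVD at -1.49, SQLE at -1.16 and LSS at -1.01. These encode enzymes of the mevalonate and sterol steps, except INSIG1, which retains the sterol sensor of the pathway in the endoplasmic reticulum. CYP51A1, a lanosterol demethylase, rose by 0.85 and ACSS2, a cytosolic acetyl-CoA synthetase, by 0.75. In DoxR against WT cells 4 genes of the list rose and 6 fell, with a median of -0.15, beside 17.4% higher and 16.3% lower over all genes. By the test of the difference of the differences 17 of the 32 were lower, beside 22.1% of all genes. The mean of all probes took LSS below the threshold, and the other genes named here passed in that setting.

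**Figure D2:**
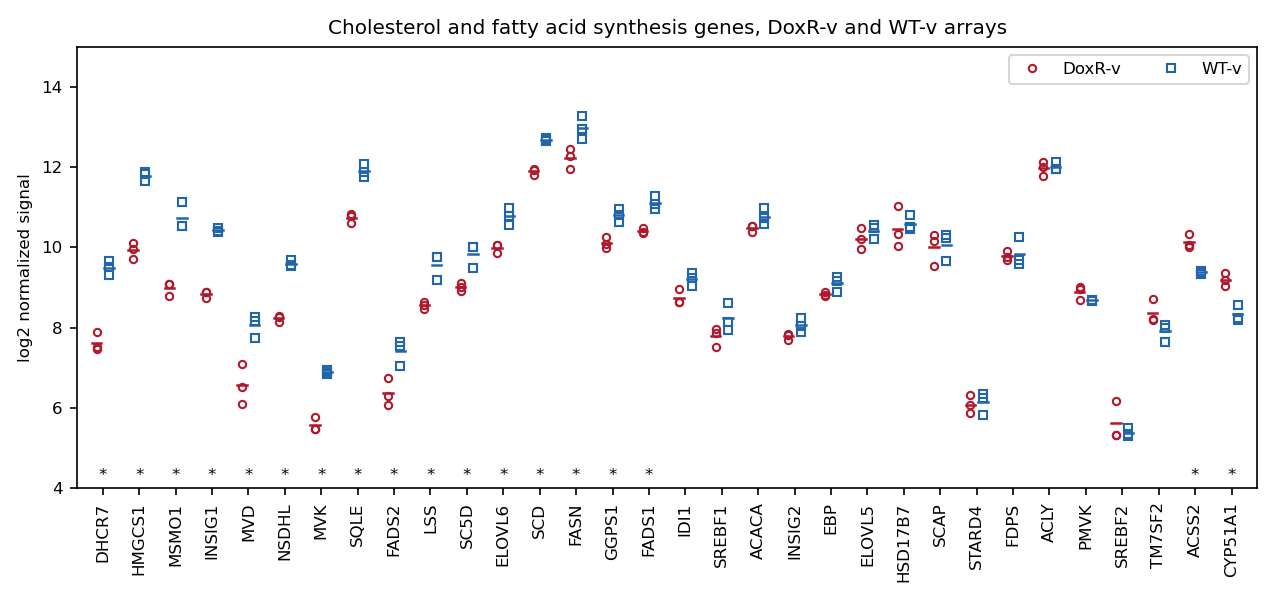
The log2 normalized signal of the 32 genes of cholesterol and fatty acid synthesis in order of their difference, with circles for the 3 DoxR-v arrays, squares for the 3 WT-v arrays, a bar at each group's mean and a star under each gene that passed. The 16 genes from the left have DoxR-v arrays below WT-v arrays and passed.

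The promoters of the 4 genes that fell most are shown because they fell together, and because genes of this pathway are known to be switched on through sterol regulatory elements that work beside CCAAT boxes bound by NF-Y. The sequences are from RefSeq (GRCh38.p14), 5′ to 3′ on the strand of the gene, and give the 200 bases before the annotated start: DHCR7 at chr11:71448394-71448593 (minus strand), HMGCS1 at chr5:43313413-43313612 (minus strand), MSMO1 at chr4:165327469-165327668 (plus strand) and INSIG1 at chr7:155297678-155297877 (plus strand). Capitals mark CCAAT or its reverse complement ATTGG.
DHCR7: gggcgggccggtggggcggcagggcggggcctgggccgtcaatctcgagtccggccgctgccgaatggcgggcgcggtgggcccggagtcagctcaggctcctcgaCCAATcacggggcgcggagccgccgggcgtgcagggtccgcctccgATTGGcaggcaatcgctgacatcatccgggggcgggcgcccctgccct
HMGCS1: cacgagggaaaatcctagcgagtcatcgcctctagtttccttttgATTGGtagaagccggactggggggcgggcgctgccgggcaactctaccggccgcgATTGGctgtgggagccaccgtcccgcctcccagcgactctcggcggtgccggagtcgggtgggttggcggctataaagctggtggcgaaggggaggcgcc
MSMO1: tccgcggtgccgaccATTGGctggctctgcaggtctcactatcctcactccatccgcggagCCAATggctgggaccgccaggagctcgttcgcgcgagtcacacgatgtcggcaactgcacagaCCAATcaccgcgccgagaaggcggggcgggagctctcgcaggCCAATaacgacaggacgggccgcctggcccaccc
INSIG1: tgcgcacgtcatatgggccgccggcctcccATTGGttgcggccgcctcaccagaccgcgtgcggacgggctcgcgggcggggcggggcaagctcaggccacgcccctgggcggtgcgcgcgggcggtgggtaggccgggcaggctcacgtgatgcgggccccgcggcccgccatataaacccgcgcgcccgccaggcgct
DHCR7 and HMGCS1 hold 2 such boxes each, MSMO1 holds 4 and INSIG1 holds 1. In the window of 300 bases around the start, CCAAT was found on either strand in 10 of the 14 fallen members with a promoter in the table (71.4%) and in 9 of the 16 other members (56.2%). Over the 9701 genes tested that have a promoter the share was 37.6%, and over all 35116 promoters 34.6%. The sterol regulatory motif TCACNCCAC was in none of the 14, in 1 of the 16 other members (6.25%), in 1.0% of the genes tested and in 1.13% of all promoters. A match is a description of letters and not of binding.

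Fatty acid oxidation genes that passed were mostly higher. Of the 28 genes, 12 rose and 2 fell (50% called beside 25.4% over all genes), and the median was 0.54. With the deposited values 6 rose and none fell. ECI2, an isomerase for unsaturated fatty acids, had log2 signals of 10.92, 11.01 and 11.07 in DoxR-v cells and 9.07, 9.66 and 8.77 in WT-v cells, a rise of 1.84 (adjusted p = 0.000105). ACOT4, a peroxisomal thioesterase, rose by 1.80. Without vorinostat the list had 4 higher and 6 lower genes, beside 17.4% and 16.3% over all genes. ECI2 fell by 3.11 in DoxR against WT cells. Genes of the lysosome and its proton pump rose in 10 of 38 and fell in 2 (31.6% called), with a median of 0.38. Those that rose included CTSH (1.74), a lysosomal cysteine protease, and MAP1LC3A (1.34), a protein of autophagosomes. ATP6AP1, an accessory subunit of the proton pump, fell by 0.86. Of the 38 lysosomal genes 4 rose and 11 fell in DoxR against WT cells. By the test of the difference of the differences 19 were higher, beside 20.4% of all genes. The list of the tricarboxylic acid cycle had 2 higher and 3 lower genes of 30 (16.7% called), below the share over all genes, and 8 were called without WT-v replicate 2.

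**Figure D3:**
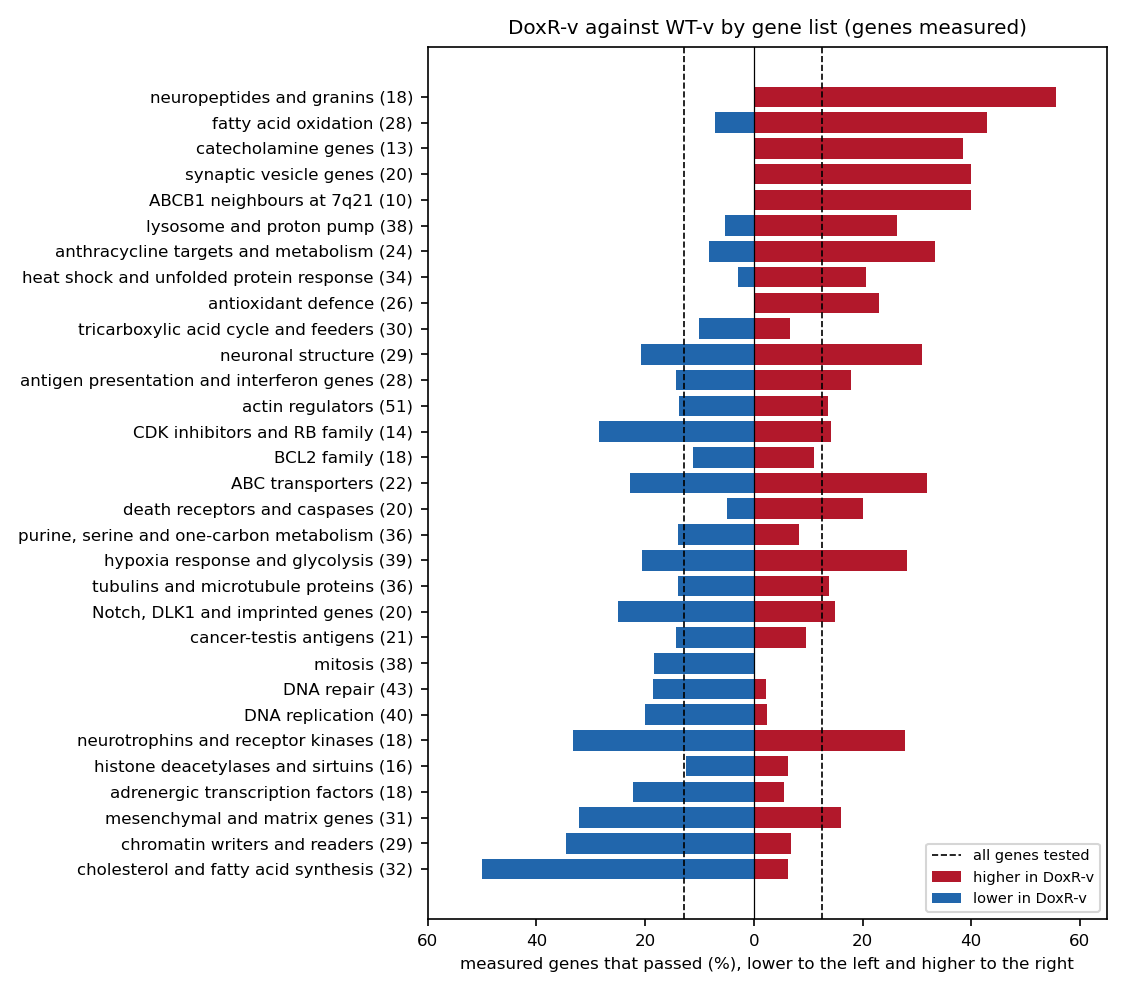
The percentage of measured genes of each list that were lower (to the left) or higher (to the right) in DoxR-v than in WT-v cells, with the number measured in parentheses, lists ordered by their median difference and dashed lines at the shares over all genes tested (12.8 and 12.6%). Cholesterol and fatty acid synthesis has the largest share lower, and neuropeptides and granins the largest share higher.

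In the lists of neurosecretion the genes that passed were all higher in DoxR-v cells. Of 18 neuropeptides and granins, 10 rose and none fell (55.6% called beside 25.4% over all genes), for a median of 0.63. Apart from SST and NMU, NPY, neuropeptide Y, read 14.13, 13.99 and 13.96 in DoxR-v cells and 11.35, 11.69 and 11.36 in WT-v cells, a rise of 2.56. SCG5, the secretogranin that chaperones a prohormone convertase, read 11.44, 11.11 and 11.57 in DoxR-v cells and 7.23, 7.64 and 6.94 in WT-v cells, a rise of 4.11 (adjusted p = 7.15e-09). VGF, the precursor of several peptides, rose by 1.15. NPY and VGF were picked after their values were seen. Of 20 synaptic vesicle genes, 8 rose and none fell (40% called, median 0.42, 5 higher without WT-v replicate 2). SYT4, a synaptotagmin, was up by 1.5 and SNAP25, a membrane fusion protein, by 1.26. Of 13 catecholamine genes, 5 rose and none fell (38.5% called, median 0.53), and 8 were called without WT-v replicate 2.

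The catecholamine genes differed in how they moved. SLC18A2, the vesicular monoamine transporter, had log2 signals of 6.98, 7.29 and 5.77 in DoxR-v cells and was undetected in WT-v cells at 4.58, 4.45 and 4.49, at least 2.42-fold higher. DBH, which turns dopamine into noradrenaline, rose by 0.88 (adjusted p = 0.0106). TH, the first enzyme of the pathway, read 13.45, 13.47 and 13.27 in DoxR-v cells and 13.4, 13.23 and 13.54 in WT-v cells (0.01 ± 0.16, adjusted p = 0.976), and the arrays overlapped. In the cells without vorinostat TH was undetected at a mean of 4.46 in DoxR and stood at 7.82 in WT. The difference of the differences for TH was 3.37.

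Genes of neuronal structure rose in 9 of 29 and fell in 6 (51.7% called beside 25.4% over all genes). MAPT, the microtubule protein tau, rose by 1.77, and ST8SIA2, which adds polysialic acid to a neural adhesion molecule, fell by 2.22. Neurotrophins and receptor kinases were called in 11 of 18 (61.1%), 5 higher and 6 lower. With the deposited values, where 1341 of all 12138 genes passed, 4 were called, 2 higher and 2 lower. BDNF, a neurotrophin, rose by 2.75 on its brightest probe (adjusted p = 7.64e-07), with 3 dimmer probes that did not pass. The receptor kinase RET, added after its value was seen, rose by 1.17 and PDGFRB fell by 2.70, reading 6.58, 6.89 and 7.22 in DoxR-v cells and 9.55, 9.53 and 9.71 in WT-v cells. Of 18 adrenergic transcription factors 1 rose and 4 fell (median -0.32), which is 27.8% called and near the 25.4% over all genes. MEIS1 rose by 0.99, while MEIS2 fell by 1.60 and HAND2 by 1.37. MYCN, the amplified oncogene of this line, read 14.69, 14.87 and 14.34 in DoxR-v cells and 14.86, 14.79 and 14.74 in WT-v cells (-0.16, adjusted p = 0.562).

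Mesenchymal and matrix genes fell in 10 of 31 and rose in 5 (48.4% called beside 25.4% over all genes). Their median was -0.33, and CD44 is among the 5. With the deposited normalized values 4 fell and 4 rose. COL6A1, a collagen chain, had log2 signals of 4.96, 5.39 and 5.69 in DoxR-v cells and 7.99, 7.27 and 8.13 in WT-v cells (-2.45), and SPARC, a matrix glycoprotein, fell by 2.42. TGFBR2, a TGF-beta receptor, rose by 2.26. Of the narrower set of mesenchymal markers 8 of 12 were measured, of which 1 rose and 3 fell. Besides COL3A1, at least 2.27-fold lower but not passing with the deposited values (-0.58), SNAI2, a repressor of epithelial genes, fell by 2.16 to 6.64, 6.41 and 6.06 in DoxR-v cells, against 8.52, 8.31 and 8.75 in WT-v cells. In DoxR against WT cells 13 of the 31 mesenchymal and matrix genes rose and 6 fell (median 0.31), beside 17.4% and 16.3% over all genes. Of the 8 markers 4 rose and 1 fell in that comparison (median 1.4). The summed linear signal of the 8 markers was 7870 to 10200 in DoxR-v and 9040 to 10600 in WT-v cells, and 18600 to 20000 in DoxR and 5710 to 6190 in WT cells. Actin regulators were split, with 7 of 51 higher and 7 lower (27.5% called, near the 25.4% over all genes). COTL1 rose by 3.88 and TAGLN3 by 2.49, while CALD1, caldesmon, fell by 3.33 on its brightest probe (2 of 3 probes passed) and TAGLN was at least 3.98-fold lower. Tubulins and microtubule proteins had 5 of 36 in each direction (27.8% called, also near that share), with TUBA4A at least 15.5-fold higher and TUBB4A up by 1.77.

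The genes of mitosis and DNA replication that passed were mostly lower, and their shares called, 18.4% and 22.5%, lay below the 25.4% over all genes. Of 38 mitosis genes, 7 fell and none rose (median -0.17), with CCNA2 at -0.90 and CENPF at -0.81. Only 4 fell without DoxR-v replicate 3, without WT-v replicate 2 or with median scaling. With the deposited values, where 640 of all genes fell, 4 fell as well. Of 40 DNA replication genes 8 fell and 1 rose (median -0.19), and 5 fell and 1 rose with the deposited values. LIG1, a DNA ligase, fell by 1.16 and RFC4, a clamp loader subunit, by 1.15, whereas MCM10 rose by 0.98 on 1 of its 2 probes. Of 14 genes of CDK inhibitors, the RB family, cyclins and their kinases 2 rose and 4 fell (42.9% called), and 1 rose and 3 fell with the deposited values. The kinase CDK6 (-0.78) is among the falls in both settings. The inhibitor of cyclin-dependent kinases CDKN1A read 9.18, 9.16 and 9.23 in DoxR-v cells and 5.75, 5.86 and 5.94 in WT-v cells, a rise of 3.34 (adjusted p = 5.73e-09). Its mean was 5.84 in DoxR and 10.38 in WT cells, so that WT-v and DoxR were the groups with little of it. CDKN2B, undetected in WT-v cells on the probe that passed, was at least 2.37-fold higher there, and its other probe did not pass. RB1, the retinoblastoma protein, fell by 1.54 and its relative RBL1 by 1.29. With the deposited values CDKN2B (0.49) and RBL1 (-0.48) did not pass. In DoxR against WT cells CDKN1A fell by 4.54.

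DNA repair genes fell in 8 of 43 and rose in 1 (20.9% called beside 25.4% over all genes), and with the deposited values 4 fell and 1 rose. The single rise was MGMT, which removes alkyl groups from guanine, with log2 signals of 10.35, 10.51 and 10.36 in DoxR-v cells and 8.76, 9.14 and 8.94 in WT-v cells (1.46, adjusted p = 6.47e-05). REV3L, a subunit of a translesion polymerase, was at least 1.70-fold lower, but did not pass with the deposited values (-0.40) or without background correction. MDC1, a damage mediator, fell by 1.26. In cell death genes the BCL2 family had 2 higher and 2 lower of 18 (22.2% called), and BCL2 differed by 0.17 (adjusted p = 0.362). BCL2L12 fell by 1.11 on its brightest probe (2 of 3 passed). Of 20 genes of death receptors, caspases and the proteins that act with them 4 rose and 1 fell (25.0% called). CYCS and GSDME, neither receptors nor caspases, are among the rises. GSDME, a gasdermin cleaved by caspase-3, read 10.16, 10.06 and 9.98 in DoxR-v cells and 6.57, 6.43 and 6.12 in WT-v cells, a rise of 3.69 (adjusted p = 5.32e-08). The death receptor TNFRSF21 fell by 1.71 and TNFRSF1A was at least 1.79-fold higher, without passing with the deposited values (0.50).

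Of the vorinostat targets HDAC2 fell by 1.04, to 11.27, 11.39 and 11.17 in DoxR-v cells, against 12.35, 12.36 and 12.22 in WT-v cells (adjusted p = 0.000104). HDAC1 did not pass (-0.32, adjusted p = 0.0806). Among 16 deacetylases and sirtuins 1 rose, SIRT1 (0.82), and 2 fell, HDAC2 and the mitochondrial SIRT5 (-1.10). That is 18.8% called beside 25.4% over all genes. The number called was 5 or 6 without DoxR-v replicate 1, DoxR-v replicate 2 or WT-v replicate 2. Chromatin writers and readers fell in 10 of 29 and rose in 2 (41.4% called), with a median of -0.35. With the deposited values 6 fell and none rose. KMT2A, a histone methyltransferase, fell by 1.14 and BRD2, a reader of acetylated histones, by 0.94. In DoxR against WT cells 6 of these 29 rose and 1 fell, beside 17.4% and 16.3% over all genes. By the test of the difference of the differences 15 were lower, beside 22.1% of all genes. HDAC2, SIRT5, BRD2, MDC1, REV3L and TNFRSF21 lie on chromosome 6, where a large share of all genes was lower.

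Hypoxia genes were called in 48.7%, beside 25.4% over all genes, with 11 higher and 8 lower of 39. With the deposited values 9 were higher and 4 lower. PFKFB3, which makes an activator of glycolysis, read 9.78, 9.8 and 9.62 in DoxR-v cells and 6.69, 6.82 and 6.89 in WT-v cells. The rise was 2.93 on this brightest probe and only 0.62 on its other probe (adjusted p = 0.0589). EGLN3, a prolyl hydroxylase, rose by 1.64. ARNT2 fell by 1.72 and VEGFA by 1.30, of which VEGFA did not pass with the deposited values (-0.54). EPAS1, which encodes HIF-2 alpha, had log2 signals of 9.06, 9.87 and 8.71 in DoxR-v cells and 8.13, 8.27 and 8.41 in WT-v cells, a rise of 0.95 ± 0.34 (adjusted p = 0.0552). The groups did not overlap, but the DoxR-v arrays spanned more than 1 log2 unit, and EPAS1 no longer passed without DoxR-v replicate 2, WT-v replicate 1 or WT-v replicate 2. HIF1A rose by 0.79 (adjusted p = 0.00357) on its brightest probe, while its other probes gave -0.36 and -0.19 and did not pass. Heat shock and unfolded protein genes rose in 7 of 34 and fell in 1 (23.5% called beside 25.4% over all genes), and 5 rose and none fell with the deposited values. HSPB1 rose by 1.16 and BAG3 by 1.40. Of 45 genes that the study named for DoxR-v cells, chosen by it on these DoxR-v arrays, 23 rose and 20 fell against WT-v, which is no independent evidence of their direction.

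The same selection without vorinostat is the comparison of DoxR with WT cells, which shares no array with that of DoxR-v and WT-v. It called 4091 genes (33.7%). Across the 12138 genes the log2 differences of the 2 comparisons had a Pearson r of 0.0214 and a Spearman rho of 0.0129, given as a description, since genes are not independent and all arrays were normalized together. Called in both with the same direction were 682 genes (5.62% of those tested), which is 22.1% of the DoxR-v list and 16.7% of the DoxR list. Opposite directions were seen in 615 genes, 19.9% and 15% of the lists. As background for the DoxR-v list, 17.4% of all genes tested were higher and 16.3% lower in DoxR against WT cells. For the DoxR list the shares were 12.6% and 12.8% in DoxR-v against WT-v cells. Alike and opposite calls both lay somewhat above this background, which was not tested. Another 1791 genes (58.0% of the DoxR-v list) were called in DoxR-v against WT-v alone, and 1322 of these also passed in the same direction in the test of the difference of the differences, which called 5149 genes in all (42.4%, with 20.4% positive and 22.1% negative).

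Ordered by the smaller of the 2 fitted differences, genes that rose in both selections were led by IFI16, SOCS2, TUBA4A, NMU and CALCB. IFI16, a sensor of foreign DNA, had log2 signals of 9.63, 8.77 and 8.85 in DoxR-v cells, against 4.8, 5.22 and 5.17 in WT-v cells, where it was undetected. It was at least 12.8-fold higher there and at least 17.7-fold higher in DoxR than in undetected WT cells. SOCS2, a suppressor of cytokine signalling, rose by 4.0 in DoxR-v and by 4.84 in DoxR cells. Genes that fell in both were led, in the same order, by GABRB1, TCEAL7, SOSTDC1, NELL1 and PDGFRB. GABRB1 averaged 4.66 in DoxR and 8.48 in WT cells, and its difference of the differences was -0.16 without passing. TCEAL7, a neuronal adaptor, was at least 3.99-fold lower in DoxR-v cells and at least 22.9-fold lower in DoxR cells. SOSTDC1, a secreted Wnt and BMP antagonist, differed by -3.05 in DoxR-v cells and was at least 4.81-fold lower in DoxR cells.

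Opposite calls, ordered by the difference of the differences, were led on the higher side by GNG11, NEFH, TAGLN3, CDKN1A and SCG5. GNG11 had a mean of 4.55 in DoxR and 7.82 in WT cells, and its difference of the differences reached 9.68 (adjusted p = 1.30e-11). TAGLN3, a calponin-related protein of neurons, rose by 2.49 in DoxR-v cells, reading 11.13, 10.64 and 11.15 against 8.34, 8.71 and 8.43 in WT-v cells, and was at least 25.8-fold lower in DoxR cells. On the lower side stood LRRC17, LEF1, SLITRK1, IGFBP3 and SPRY1. LRRC17 read 5.89, 5.49 and 6.21 in DoxR-v cells and 9.56, 9.86 and 9.47 in WT-v cells, with means of 12.52 in DoxR and 6.58 in WT cells. IGFBP3, which binds insulin-like growth factors, fell by 2.26 in DoxR-v cells and was at least 12.4-fold higher in DoxR cells. SLITRK1, a synaptic adhesion protein, fell by 3.08 in DoxR-v cells on its brightest probe, and its other probe did not pass. SPRY1, an inhibitor of receptor kinase signalling, fell by 2.64.

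**Figure D4:**
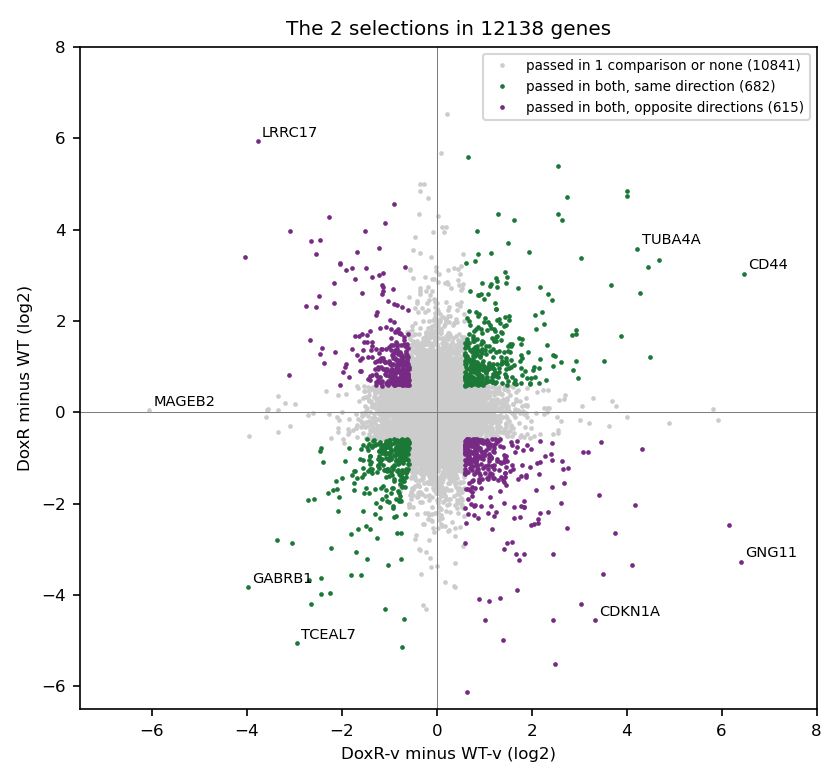
The log2 difference of DoxR-v minus WT-v (x axis) against that of DoxR minus WT (y axis), 1 point per gene, for 12138 genes. Green points are the 682 genes that passed in both in the same direction, purple points the 615 that passed in opposite directions, and the cloud has no slope that can be seen (r = 0.0214).

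Called genes were unevenly spread over the chromosomes. On chromosome 6, 199 of 613 genes fell (32.5%) and 40 rose, with a median difference of -0.365 on the log2 scale beside -0.035 over all genes. On chromosome 16, 159 of 559 fell (28.4%, median -0.298), and on chromosome 19, 157 of 855 (18.4%, median -0.202). Chromosomes 4 (22% lower) and 13 (20.6% lower) had shares between these. On chromosome 10 the balance was reversed, with 149 of 472 genes higher (31.6%) and 23 lower and a median of 0.277. Chromosome 21 had a median of 0.292 and chromosome 7 had 20.6% of its genes higher. In DoxR against WT cells the medians were -0.24 for chromosome 6, -0.037 for chromosome 16, 0.013 for chromosome 19, 0.244 for chromosome 10 and -0.113 for chromosome 21. The medians of chromosomes 6, 10 and 16 thus had the same sign in both selections, with that of chromosome 16 small in DoxR against WT cells. Several other chromosomes also shared the sign, among them chromosome 4 (-0.192 and -0.118) and chromosome 22 (-0.139 and -0.62).

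Runs of 15 neighbouring tested genes located the strongest shifts. On the long arm of chromosome 6 the run from CD164 to FYN (chr6:109366514-111873452, GRCh38.p14) had 13 of 15 genes lower and a median of -1.42. The median log2 signal over its genes was 6.53, 6.4 and 6.49 on DoxR-v arrays and 7.94, 7.88 and 7.94 on WT-v arrays, while the DoxR arrays lay at 7.54 to 7.64 and the WT arrays at 7.96 to 8.03. DoxR-v was the group that stood apart. The neighbouring run from LIN28B to SEC63 (chr6:104937026-107958208) had 12 of 15 lower and a median of -1.22. Among their genes AMD1, a polyamine synthesis enzyme, fell by 1.51 and REV3L was named above. The run from ABCC5 to VPS8 on chromosome 3 (chr3:183919934-185052614) had 12 of 15 lower and a median of -1.04. The strongest upward run was that from GNG11 to SDHAF3 on chromosome 7 (chr7:93921735-97181763), with 10 of 15 higher and a median of 1.04, which holds PON2 and the imprinted gene PEG10 (1.38). Its median signal was 10.16, 9.66 and 9.88 on DoxR-v arrays and 7.59, 7.01 and 7 on WT-v arrays. A further 3 of the 5 highest runs lay on chromosome 10. Of 11792 runs, 4.94% had a median beyond 0.5 in either direction. DNA copy number was not measured.

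**Figure D5:**
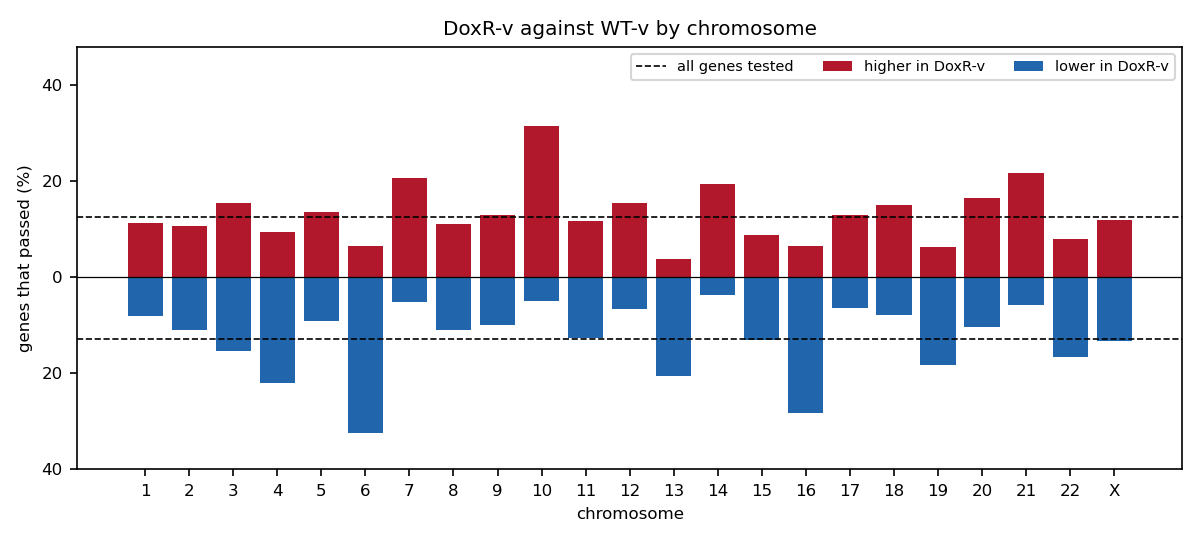
The percentage of tested genes that were higher (above zero) or lower (below zero) in DoxR-v than in WT-v cells on each chromosome, with dashed lines at the shares over all genes tested (12.6 and 12.8%). Chromosome 6 has the largest share lower (32.5%) and chromosome 10 the largest share higher (31.6%).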

How the data were processed

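The SK-N-Be(2)C line was profiled on Illumina HumanHT-12 v4 arrays, in 4 groups of 3 arrays. The main values are probe signal intensities that the authors deposited without normalization between arrays, each with a detection p-value per the file headers. The authors also deposited quantile normalized intensities on a linear scale, used as an alternative. Tools listed in the submitters' processing notes are lumi 2.13.3 with R 3.0.1. The program that summarised the beads is not given in the sources used here.

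Signals were background-corrected by normexp (offset 16, parameters inferred from detection p-values), then quantile normalized and log2 transformed in limma 3.58.1 (R 4.3.3). Testing was limited to the 21730 of 47323 probes detected (p under 0.01) on 1 or more of the 12 arrays. Of all probes, 30113 had 1 gene symbol, 8 several and 17202 none, and 30074 were matched to RefSeq by Entrez ID. The 16412 tested probes with 1 symbol gave 12138 genes, each represented by its brightest probe over all arrays. One mean per group was fitted to all 12 arrays by limma with empirical Bayes moderation, and p-values were adjusted by Benjamini-Hochberg over all probes tested. The difference of the differences is DoxR-v minus WT-v less DoxR minus WT. Where a group was undetected on all its arrays, its level was taken as the lowest detected signal of each array, or its own if higher, and the fold is given as at least that value. The number of arrays limits the precision. The fit was tested on simulated data.

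Genes named are the 10 largest changes in each direction among genes detected on all arrays of the higher group and also called with the deposited values, up to 2 genes per list and direction, 18 preset genes whatever their value, and the 5 leading genes of each kind called in both selections. Some preset genes are not reported here. Members, lists and tests were chosen with earlier results of these data known. Alternatives were the deposited values, no background correction, an offset of 50, median scaling, other detection filters, stricter thresholds, averaging a gene's probes, a replicate block, only the arrays compared, and leaving out each array in turn. The SK-N-SH line was not analysed here.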

Additional observations from a re-analysis of the deposited data

Results flagged for a closer look

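For 95 of the 120 named genes the difference between DoxR-v and WT-v cells was not the one between DoxR and WT cells. The test was limma's of the difference of the differences (adjusted p under 0.1, fold over 1.5), which called 42.4% of all genes tested. Most named genes were chosen for a large difference between DoxR-v and WT-v cells, which is part of this test, and some for passing it. The count among named genes therefore cannot be set against that share. The values below are log2 and are positive where DoxR-v stood higher over WT-v than DoxR over WT. They were positive in 45 genes and negative in 50. Where a group was undetected they are fitted values and not sizes. Groups of 3 arrays were not tested for outlying arrays. The largest positive values were those of GNG11 (9.68), NEFH (8.61), TAGLN3 (7.99), CDKN1A (7.88), SCG5 (7.45), SST (6.09), YBX3 (5.74), CPED1 (5.14) and TMTC1 (5.12). Of catecholamine and neurosecretory genes they were those of DBH (4.97), SLC18A2 (4.39), TH (3.37), PROK2 (3.28), VGF (1.4), NMU (1.34), CALCB (1.25), SNAP25 (1.1) and SYT4 (1.04). Metabolic and lysosomal genes with positive values were ECI2 (4.95), ACOT4 (0.97), ACSS2 (0.84), CTSH (4.05), MAP1LC3A (1.4), PFKFB3 (1.22), EGLN3 (1.62), EPAS1 (1.13) and HIF1A (0.69). Transport, detoxification and stress genes gave ABCC3 (4.47), ABCB9 (1.45), GPX3 (4.5), PON2 (2.91), CBR3 (0.95), MGMT (1.53), BAG3 (2.89), HSPB1 (0.62) and ELAPOR2 (0.9). The remaining positive values were those of TUBB4A (3.81), CD44 (3.44), GSDME (3.44), COTL1 (2.21), TCEAL7 (2.11), TNFRSF1A (1.67), MAPT (1.13), CDKN2B (1.05) and PDGFRB (0.99). Negative values were largest in LRRC17 (-9.7), LEF1 (-7.45), SLITRK1 (-7.04), IGFBP3 (-6.53), SPRY1 (-6.38), MAGEB2 (-6.09), COL3A1 (-5.01), SNAI2 (-4.55) and TAGLN (-4.25). Small nuclear RNA genes and other genes high in WT-v cells gave RNU1-3 (-3.63), RNVU1-7 (-3.63), RNU4-1 (-3.5), RNU5A-1 (-3.43) and GRIA2 (-2.92). Matrix, cytoskeletal and neuronal genes gave SPARC (-3.84), CALD1 (-3.68), COL6A1 (-1.6), ST8SIA2 (-1.66), NPY (-1.79), BDNF (-1.97) and MEIS2 (-1.28). In cholesterol synthesis the values were those of SQLE (-1.74), DHCR7 (-1.5), INSIG1 (-1.49), HMGCS1 (-1.39), MVD (-1.29), LSS (-1.04) and CYP51A1 (-0.76). Cell cycle, chromatin and repair genes gave REV3L (-2.19), KMT2A (-2.08), RB1 (-1.99), CENPF (-1.91), RBL1 (-1.8), LIG1 (-1.74), HDAC2 (-1.15), MDC1 (-1.12), SIRT5 (-0.79) and TOP2B (-0.87). The rest were AKR1C2 (-4.23), ARNT2 (-3.38), CROT (-1.69), TNFRSF21 (-1.67), AMD1 (-1.49), BCL2L12 (-1.41), ABCB1 (-1.25), ATP6AP1 (-1.05), BCL2 (-0.89), SOCS2 (-0.85), IFI16 (-0.73) and GSTP1 (-0.68).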

How the results depend on the processing

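The number of genes that passed in DoxR-v against WT-v cells depended on how the signal scale was made. It was 1341 with the deposited normalized values (701 higher, 640 lower), 1625 without background correction (845 and 780) and 1121 at a fold change over 2 (613 and 508). All 1341 and all 1625 were among the 3088 genes, in the same direction. The difference of the differences passed in 2931 genes with the deposited values and 2807 at a fold over 2. Genes called alike in both selections were 251 with the deposited values, 315 without background correction and 202 at a fold over 2. Opposite calls were 199, 258 and 175 in these settings, and 401 with an offset of 50. Called genes of the lists, 289, numbered 185 with the deposited values and 139 at a fold over 2. With the deposited values the cholesterol and fatty acid synthesis list kept 14 genes lower and 2 higher, and the neuropeptides 8 higher and none lower. The range of chromosome medians, 0.657, was 0.342 with the deposited values and 0.407 without background correction, with the signs of chromosomes 6, 10, 16, 19 and 21 as before.

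Leaving out 1 array at a time gave 2935 to 3341 genes (1447 to 1634 higher, 1450 to 1707 lower), 4809 to 5500 for the difference of the differences, 656 to 734 alike, 562 to 683 opposite, 274 to 303 list genes, chromosome ranges of 0.626 to 0.686, and 111 to 112 of the 112 named genes that passed. The highest counts for the difference of the differences (5500), alike calls (734) and opposite calls (683) all came without WT replicate 3, which lay apart from the other WT arrays. Among 120 named genes, 96 kept their direction and call in every setting. EPAS1 lost its call in 6 settings. The deposited values took 8 named genes below the threshold, CBR3, CDKN2B, COL3A1, CROT, RBL1, REV3L, TNFRSF1A and VEGFA. TH, which did not differ, changed sign with the mean of all probes (-0.040) and ranged from -0.072 to 0.084 when an array was left out.

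No label says whether equal replicate numbers mark specimens handled together. The deviations of DoxR-v and WT-v arrays with the same number correlated at -0.0013, -0.12 and -0.13. These values show no shared deviation, but cannot tell how the specimens were handled. With the replicate block 3073 of the 3088 genes passed and no named gene changed its call. Signals near the detection limit give bounds and not sizes.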
